A study of Mus musculus with 12 samples.

Results

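The genes described here encode the phosphofructokinase subunits and the enzymes that set their main activator. They are Pfkl, Pfkp and Pfkm, the liver, platelet and muscle subunits of phosphofructokinase, and Pfkfb1, Pfkfb2, Pfkfb3 and Pfkfb4. The members were chosen by name, as the rows whose Ensembl identifiers carry these symbols, and they are 7 of the 37620 gene identifiers in the count table. All 7 passed the filter on low counts.

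Polyadenylated RNA was sequenced from primary macrophages grown from the bone marrow of C57BL/6 mice, in culture at day 7. Oxygen was either normal (normoxia) or lowered to 1% (hypoxia), and the medium held either 25 mM NaCl, as salt control, or sodium lactate at the same 25 mM. Crossing the conditions gives 4 groups with 3 libraries apiece, numbered 1 to 3: the normoxia-NaCl group without treatment, normoxia-lactate, hypoxia-NaCl, and both treatments in hypoxia-lactate. Nothing in the labels ties libraries to separate mice or dishes, so the p-values speak for the spread among these libraries alone. Pairs of libraries within a group differed by more than counting error (chi-square per degree of freedom 39.1 to 335). Whether that spread is technical was not tested.

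Phosphofructokinase adds the second phosphate to fructose phosphate in the first step that commits sugar to glycolysis, and the active enzyme is a tetramer of the L, P and M subunits. The PFKFB enzymes each carry a kinase and a phosphatase: the kinase makes a fructose bisphosphate that activates phosphofructokinase and the phosphatase removes it. Pfkfb3 encodes the isoform with the strongest bias towards the kinase, and Pfkfb3 and Pfkfb4 are known targets of the hypoxia-inducible factors, the transcription factors that act in low oxygen. Macrophages rely on glycolysis in low oxygen and during inflammatory activation.

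Reads assigned to genes numbered 22705978 to 49885085 in a library, and tests were run on 14616 genes. The library hypoxia-lactate 3 differed most from the others. It had 11437 genes with at least 10 reads against 13198 to 14767 in the others, and a median Spearman correlation with them of 0.922, where the others had 0.963 to 0.977. Mitochondrial transcripts made up 0.486% of its reads (95% Wilson interval 0.483% to 0.489%, counting error only) and 2.04% to 4.75% elsewhere. The TMM scaling factor of hypoxia-lactate 3 was 0.742, against 0.864 to 1.10 in the others, and a lower factor raises all levels of a library. Among the other 11, normoxia-NaCl 1 had the lowest such correlation and the highest mitochondrial share, and both libraries were also left out together. The main tested changes that rest on hypoxia-lactate 3 are given with and without it. Levels and shares per kb are given only with it. The 8 macrophage markers (Adgre1, Csf1r, Cd68, Lyz2, Itgam, Mertk, Fcgr1 and Cd14) summed to 33206 to 48924 CPM (read counts scaled to library size) in every library, and the 3 normoxia-lactate libraries (42736 to 48924) were above the 3 of normoxia-NaCl (33206 to 38515). Lyz2 was the largest part of the sum, with means of 26474 CPM in normoxia-NaCl and 35759 in normoxia-lactate. Itgam and Cd14 also had higher means in normoxia-lactate than in normoxia-NaCl. Adgre1, Csf1r, Cd68, Mertk and Fcgr1 had lower means there, so the markers did not move as a set. The 6 fibroblast markers summed to 86.2 to 108 CPM in library 1 of each group, 102 in hypoxia-lactate 3 and 28.9 to 58.0 elsewhere. The 8 neutrophil markers summed to 21.9 to 40.9 CPM in library 2 of each group, 34.9 in hypoxia-lactate 3 and 0.241 to 5.16 elsewhere. In the hypoxia-lactate group S100a8 had the highest mean of the 8 (13.9 CPM, SD 18.5), above S100a9 (3.60, SD 6.24), and Mpo and Camp were at 0. In each other group S100a9 had the highest mean (3.67 to 6.28 CPM). The 5 dendritic cell markers summed to 1.93 to 4.44 CPM in hypoxia-NaCl and 0 to 1.91 in hypoxia-lactate. The part of these cells in the members' levels was not tested. In bulk RNA, fewer cells of a type and less RNA per cell cannot be told apart.

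Short stretches before the transcription starts of 4 members are shown because they hold the core letters of the element that hypoxia-inducible factors bind, in the 3 members that rose in hypoxia and in Pfkfb4, which did not. The stretches are from RefSeq promoter windows on GRCm38.p6, written on the gene's strand with the core in capitals. All 7 members matched a window. Distances are from the RefSeq starts, which can differ from the GENCODE M21 gene bounds printed further on. The stretches of Pfkl and Pfkfb3 lie inside those bounds, that of Pfkfb4 spans 1 of them, and those of Pfkp lie outside.
Pfkl, chr10:78009892-78009916, minus strand, core 99 bases before the start: ttgtagactgGCGTGcgctccgcct
Pfkp, chr13:6648893-6648917, minus strand, core 136 bases before the start: ctaacagaacGCGTGtccatactat
Pfkp, chr13:6648825-6648849, minus strand, core 68 bases before the start: ccccgcccttGCGTGagtcccgccc
Pfkp, chr13:6648780-6648804, minus strand, core 23 bases before the start: ctcgggcgggGCGTGggcggctcct
Pfkfb3, chr2:11502198-11502222, minus strand, core 122 bases before 1 of its 2 starts: caggaacagaGCGTGctgctctcgt
Pfkfb3, chr2:11502128-11502153, minus strand, core 53 bases before that start: cccttctctcCACGTGaaagggggct
Pfkfb3, chr2:11553975-11553999, minus strand, core 60 bases before the other start: ccgcgccgtgACGTGccaagctgtg
Pfkfb4, chr9:108991775-108991799, plus strand, core 117 bases before the start: gacggatgggGCGTGcttagtccaa

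The search took ACGTG and GCGTG on both strands in the 250 bases before each annotated start. CACGTG reads the same on both strands and so holds ACGTG on each. At least 1 core was present in 38.6% of 32851 such windows over 27025 genes (ACGTG in 16.6% and GCGTG in 28.2%). It was present in 4 of 4 windows of Pfkl, Pfkp and Pfkfb3, and in 8 of 12 windows of the other 4 members: 1 of 1 for Pfkfb4, 3 of 3 for Pfkfb2, 3 of 4 for Pfkm and 1 of 4 for Pfkfb1. These are matches of letters, and binding was not measured.

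Pfkl and Pfkfb3 rose in hypoxia in both media, and Pfkp rose in the mean over both. With the library number as a replicate block, the rise of Pfkl without lactate did not pass edgeR's test (adjusted p = 0.0595). Averaged over both media, Pfkl was 3.56-fold, Pfkfb3 3.18-fold and Pfkp 2.17-fold higher in hypoxia than in normoxia. The value of Pfkp was 1.76-fold without hypoxia-lactate 3. Its call was lost on leaving out any single library of normoxia-NaCl, normoxia-lactate or hypoxia-NaCl. Pfkm, Pfkfb1, Pfkfb2 and Pfkfb4 did not pass edgeR's test in any comparison. Lactate moved none of the 7 past the threshold, but hardly any genes passed. The share called was 0% in normoxia, 0% in hypoxia and 0.0342% averaged over both oxygen levels.

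**Figure D1:**
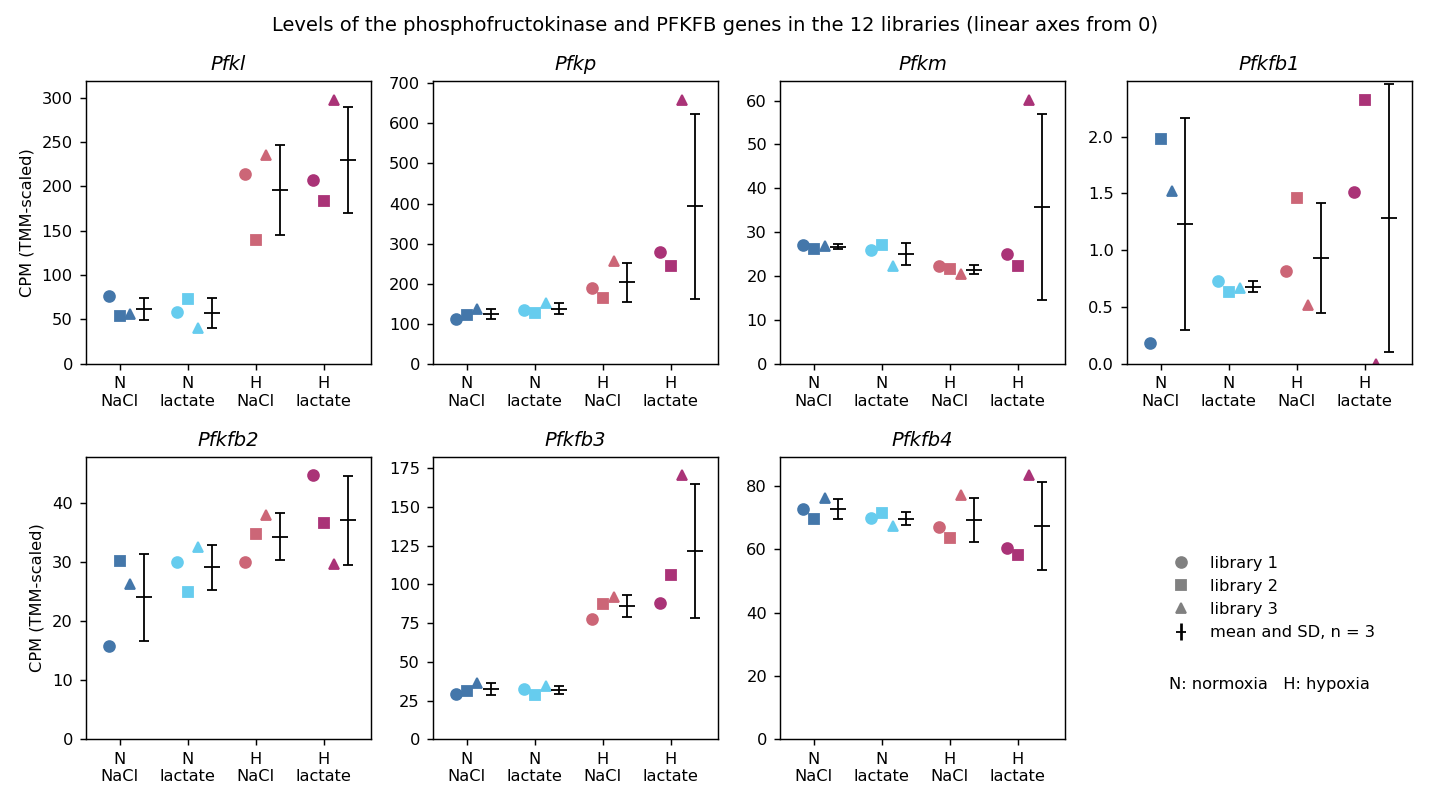
Level of each gene in the 12 libraries, in CPM after TMM scaling, on linear axes from 0. Each point is 1 library, marked by its number, and the black mark is the group mean with its SD (n = 3). The 6 hypoxia points of Pfkl (139 to 298) and of Pfkfb3 (77.9 to 170) lie above the 6 normoxia points, while those of Pfkfb4 (58.3 to 83.4) lie among them.

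Pfkl, on chromosome 10 (GRCm38, 77986947 to 78010083, minus strand), encodes the liver-type subunit. Its level was 76.4, 53.6 and 56.3 CPM in the 3 normoxia-NaCl libraries and 58.5, 72.8 and 40.0 CPM in normoxia-lactate. In hypoxia-NaCl it was 214, 139 and 235 CPM, and in hypoxia-lactate 207, 184 and 298 CPM. Every hypoxia library was above every normoxia library. The log2 fold change was 1.66 ± 0.28 (SE) without lactate (edgeR quasi-likelihood test, adjusted p = 0.0298) and 2.01 ± 0.29 with lactate (adjusted p = 0.0108). Without hypoxia-lactate 3 these were 1.66 ± 0.24 (adjusted p = 0.00366) and 1.77 ± 0.26 (adjusted p = 0.00832). With the library number as a replicate block, the adjusted p without lactate was 0.0595.

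Pfkp, on chromosome 13 (6579768 to 6648777, minus strand), encodes the platelet-type subunit. Its level was 111, 122 and 136 CPM in normoxia-NaCl and 134, 126 and 153 CPM in normoxia-lactate. It was 189, 163 and 258 CPM in hypoxia-NaCl, and 279, 243 and 660 CPM in hypoxia-lactate. The hypoxia libraries were all above the normoxia libraries, and hypoxia-lactate 3 was more than 2-fold above any other. The log2 fold change was 0.72 ± 0.33 without lactate (adjusted p = 0.754) and 1.52 ± 0.33 with lactate (adjusted p = 0.117), and neither passed the threshold in the edgeR test. Leaving out hypoxia-lactate 3 brought the second to 0.92 ± 0.19 with an adjusted p of 0.0447. The spread shared by the genes, as a common coefficient of variation, was 38.2% over all 12 libraries and 24.3% without that library.

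Pfkm, on chromosome 15 (98092589 to 98132451, plus strand), encodes the muscle-type subunit. It was measured at 27.1, 26.1 and 26.9 CPM in normoxia-NaCl and at 25.9, 27.1 and 22.3 CPM in normoxia-lactate. Hypoxia-NaCl gave 22.3, 21.6 and 20.5 CPM, and hypoxia-lactate gave 24.9, 22.2 and 60.2 CPM. The 3 hypoxia-NaCl libraries were below the 3 normoxia-NaCl libraries, and 1 hypoxia-lactate library stood far above the rest. The difference without lactate was -0.32 ± 0.32 on the log2 scale (adjusted p = 0.97). Averaged over both media it was 0.10 ± 0.23 (95% interval -0.35 to 0.54, adjusted p = 0.888), and -0.21 ± 0.10 without hypoxia-lactate 3 (adjusted p = 0.215). Of the 4 skeletal muscle markers (Acta1, Ckm, Myh4 and Des), Myh4 was at 0 in all libraries and Acta1 alone passed the filter. The 4 summed to 1.16 to 3.12 CPM in 11 libraries and to 27.7 CPM in hypoxia-lactate 3, where all of it was Acta1. Their part in the Pfkm value there was not tested.

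Pfkfb3, on chromosome 2 (11471433 to 11554077, minus strand), had the lowest p-value of the 7 for the mean effect of oxygen. Its level was 29.1, 31.0 and 36.6 CPM in normoxia-NaCl and 32.5, 28.9 and 34.5 CPM in normoxia-lactate. It was 77.9, 87.6 and 92.0 CPM in hypoxia-NaCl, and 88, 106 and 170 CPM in hypoxia-lactate. Again no hypoxia library overlapped with a normoxia library. The log2 fold change was 1.41 ± 0.23 without lactate (adjusted p = 0.0265) and 1.93 ± 0.24 with lactate (adjusted p = 0.00576), both by edgeR's test. Without hypoxia-lactate 3 the second was 1.59 ± 0.15 (adjusted p = 0.000588).

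Pfkfb4, on chromosome 9 (108991778 to 109032228, plus strand), ranged from 58.3 to 83.4 CPM. It was at 72.7, 69.6 and 76.1 CPM in normoxia-NaCl and 70.0, 71.5 and 67.4 CPM in normoxia-lactate. It was at 67.0, 63.6 and 77.1 CPM in hypoxia-NaCl, and 60.4, 58.3 and 83.4 CPM in hypoxia-lactate. With all libraries the groups overlapped, but hypoxia-lactate 1 and 2 lay below all 6 normoxia libraries and hypoxia-lactate 3 above them. The place of hypoxia-lactate 3 depends on its TMM factor of 0.742. Before scaling, the 3 hypoxia-lactate libraries had 1757, 1553 and 1406 reads of Pfkfb4 among 28140925, 25246974 and 22701287 reads in tested genes. Averaged over both media the difference between hypoxia and normoxia was -0.06 ± 0.13 on the log2 scale (95% interval -0.31 to 0.19, adjusted p = 0.873). Without hypoxia-lactate 3 it was -0.16 ± 0.09 (adjusted p = 0.289), and both conditions together gave -0.29 ± 0.13 (unadjusted p = 0.0455 in edgeR's test, adjusted p = 0.182).

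Pfkfb2, on chromosome 1 (130689182 to 130729253, minus strand), encodes the isoform known from heart. It was at 15.9, 30.1 and 26.2 CPM in normoxia-NaCl and 29.9, 25.0 and 32.5 CPM in normoxia-lactate. It was at 30.1, 34.8 and 38.0 CPM in hypoxia-NaCl, and 44.7, 36.6 and 29.7 CPM in hypoxia-lactate. The hypoxia libraries were mostly the higher ones, but the groups overlapped. The mean difference between hypoxia and normoxia was 0.43 ± 0.18 on the log2 scale, with an adjusted p of 0.291 in edgeR's test. It passed in 2 alternatives, limma-voom with library quality weights (adjusted p = 0.0334, 15.1% of genes called) and the replicate block without hypoxia-lactate 3 and normoxia-NaCl 1 (adjusted p = 0.0293, 17.8% called).

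Pfkfb1, on chromosome X (150588229 to 150643878, plus strand), encodes the liver and skeletal muscle isoform and was close to the limit of detection. It had 4, 75 and 78 reads in normoxia-NaCl, and 35, 32 and 30 in normoxia-lactate. It had 40, 47 and 16 reads in hypoxia-NaCl, and 44, 62 and 0 in hypoxia-lactate. The highest library reached 2.33 CPM. With all libraries the groups overlapped, but hypoxia-lactate 1 and 2 (1.51 and 2.33 CPM) lay above the 3 normoxia-lactate libraries (0.632 to 0.728 CPM). The log2 fold change of hypoxia with lactate was 0.94 ± 1.03, and 1.495 ± 0.69 without hypoxia-lactate 3 (adjusted p = 0.691 and 0.354). The mean difference between hypoxia and normoxia was 0.26 ± 0.72, and 0.53 ± 0.47 without that library. With all libraries the 95% interval of the mean difference between hypoxia and normoxia ran from -1.16 to 1.68 on the log2 scale.

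**Figure D2:**
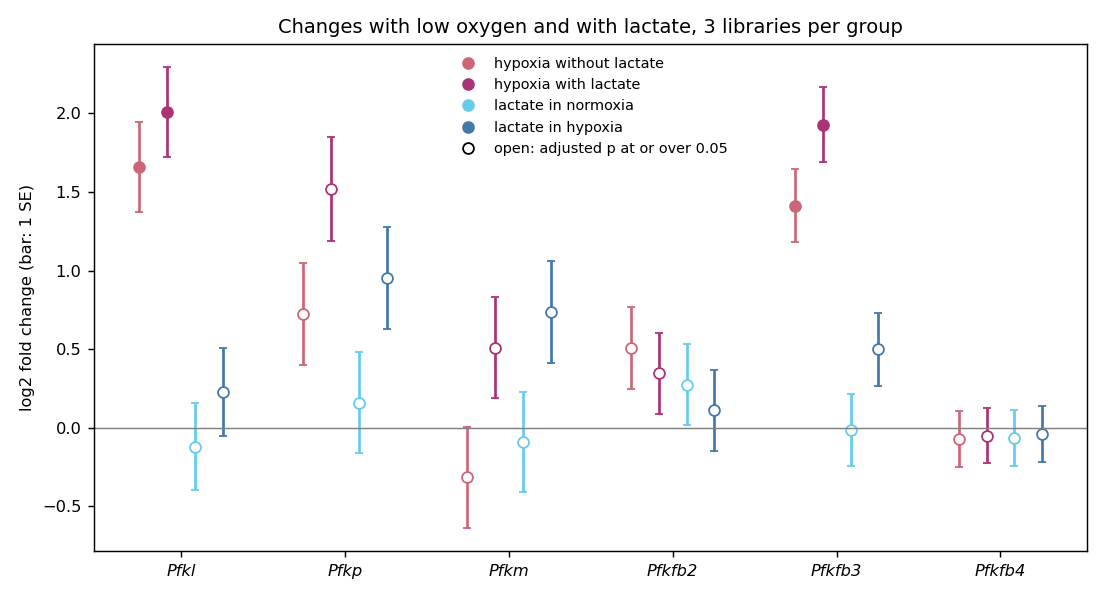
Log2 fold change with its SE for 6 members in 4 comparisons of 3 libraries against 3, with filled points where the adjusted p from edgeR was under 0.05. Pfkfb1 is left out because of its low counts. The filled points are those of Pfkl and Pfkfb3 for hypoxia in each medium. The points of Pfkp and Pfkm for lactate in hypoxia (0.95 and 0.74) include hypoxia-lactate 3 and are open.

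Counting members, hypoxia without lactate changed 2 of 7 (Pfkl and Pfkfb3, both higher), where 0.281% of the 14616 genes tested were called. That fit had no replicate block. With the library number as block, 1 of 7 was called (Pfkfb3), with 41 of 14616 genes called. Hypoxia with lactate also changed Pfkl and Pfkfb3, 2 of 7, with 0.226% of genes called, and both calls held with the block (34 of 14616 genes called). Leaving out any library of normoxia-NaCl, normoxia-lactate 1, or hypoxia-NaCl 1 or 3 removed both calls without lactate, with adjusted p-values from 0.0619 to 0.214. Leaving out hypoxia-NaCl 2 removed that of Pfkfb3 (adjusted p = 0.136), and leaving out hypoxia-lactate 1 removed that of Pfkl (adjusted p = 0.052). With lactate, leaving out normoxia-lactate 1 removed both (adjusted p = 0.108 and 0.073), and leaving out normoxia-lactate 3 removed that of Pfkl (adjusted p = 0.087). Pfkp joined them with lactate under 7 alternatives. These were leaving out hypoxia-lactate 2 (adjusted p = 0.0415, 0.333% of genes called), hypoxia-lactate 3 (0.862% called) or both hypoxia-lactate 3 and normoxia-NaCl 1 (adjusted p = 0.0208, 2.49% called), and no filter (adjusted p = 0.0497, 0.21% called). DESeq2 (adjusted p = 0.00323, 2.99% called), limma-voom with quality weights (adjusted p = 0.00298, 5.04% called) and the block without those libraries (adjusted p = 0.0002, 8.34% called) also passed Pfkp. Without lactate Pfkp passed under 1 alternative, the replicate block without hypoxia-lactate 3 and normoxia-NaCl 1 (0.64, adjusted p = 0.00856, 5.48% of genes called).

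Both conditions together, hypoxia-lactate against normoxia-NaCl, changed 3 of 7 members, with 1.61% of genes called. The rises were 1.89 ± 0.29 for Pfkl (adjusted p = 0.00682), 1.91 ± 0.24 for Pfkfb3 (adjusted p = 0.00206) and 1.68 ± 0.33 for Pfkp (adjusted p = 0.026) on the log2 scale. Without hypoxia-lactate 3 all 3 calls held, at 1.66, 1.59 and 1.08, with 6.86% of genes called. The call of Pfkp was lost on leaving out normoxia-lactate 1 or any library of normoxia-NaCl (adjusted p from 0.0541 to 0.133). This comparison shares its groups with the others, so the calls are not separate evidence.

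Averaged over both media, hypoxia changed the same 3 of 7, with 1.38% of genes called. The log2 fold change was 1.83 ± 0.20 for Pfkl (adjusted p = 0.000557), 1.67 ± 0.17 for Pfkfb3 (adjusted p = 0.000289) and 1.12 ± 0.23 for Pfkp (adjusted p = 0.0353). Pfkfb3 ranked 11 and Pfkl 18 by p-value among the 14616 genes. Both were called under all 20 alternatives, at 1.72 to 1.93 for Pfkl and 1.45 to 1.75 for Pfkfb3. Pfkp lost its call on leaving out any 1 library of normoxia-NaCl, normoxia-lactate or hypoxia-NaCl (adjusted p from 0.0607 to 0.125). Without hypoxia-lactate 3 its fold change was 0.82 ± 0.13 (adjusted p = 0.00277).

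Lactate changed 0 of 7 members in normoxia by edgeR's test, with 0% of genes called, and 0 of 7 had an unadjusted p under 0.05. In hypoxia it changed 0 of 7, also with 0% of genes called, and 3 had an unadjusted p under 0.05: Pfkp (0.95 ± 0.33, adjusted p = 0.432), Pfkm (0.74 ± 0.32, adjusted p = 0.432) and Pfkfb3 (0.50 ± 0.23, adjusted p = 0.436). By p-value they ranked 373, 1359 and 1657 among the 14616 genes, so many other genes passed that unadjusted limit too. Without hypoxia-lactate 3 the values of these genes were 0.36, 0.14 and 0.18. Averaged over both oxygen levels, lactate changed 0 of 7, with 0.0342% of genes called and 1 member, Pfkp, at an unadjusted p under 0.05 (0.56 ± 0.23). Pfkp ranked 666 among the 14616 genes there. DESeq2 also called 0 of 7 in each, where it called 0.0616%, 0.766% and 0.705% of genes in normoxia, in hypoxia and on average. Limma-voom called 0 of 7 in each, with 0%, 0% and 0.0342% of genes.

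The interaction, the difference between the lactate effects in hypoxia and in normoxia, was called for 0 of 7 members by edgeR, DESeq2 and limma-voom, with 0%, 0.00684% and 0% of genes called, and 0 had an unadjusted p under 0.05. It was 0.35 ± 0.39 for Pfkl, 0.79 ± 0.46 for Pfkp and 0.51 ± 0.33 for Pfkfb3. Without hypoxia-lactate 3 it was 0.12, 0.20 and 0.19. The larger fold changes in hypoxia with lactate than without are therefore not shown to differ.

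Levels of different genes were compared per kilobase (kb) of the longest principal transcript, since long transcripts yield more reads. In normoxia-NaCl the order was Pfkp at 29.7 ± 3.03 CPM per kb (SD, n = 3), Pfkfb4 at 20.9 ± 0.93, Pfkl at 16.7 ± 3.34, Pfkm at 9.27 ± 0.19, Pfkfb3 at 6.95 ± 0.84, Pfkfb2 at 5.44 ± 1.66 and Pfkfb1 at 0.706 ± 0.54. The ranges of Pfkfb4 and Pfkl overlapped, and so did those of Pfkfb3 and Pfkfb2. The order was the same in normoxia-lactate, with the same overlaps. In hypoxia-NaCl Pfkl stood at 52.6 ± 13.5 and Pfkp at 49.1 ± 11.7 CPM per kb, with overlapping ranges. Pfkfb4 at 19.9 ± 2.02 and Pfkfb3 at 18.5 ± 1.56 overlapped too, as did Pfkfb2 at 7.75 ± 0.90 and Pfkm at 7.45 ± 0.33. In hypoxia-lactate Pfkp was at 95 ± 55.7, Pfkl at 61.6 ± 16.1, Pfkfb3 at 26.2 ± 9.36, Pfkfb4 at 19.3 ± 4.0, Pfkm at 12.4 ± 7.36 and Pfkfb2 at 8.36 ± 1.69 CPM per kb, and the ranges of neighbours in that order overlapped, except those of Pfkl and Pfkfb3.

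**Figure D3:**
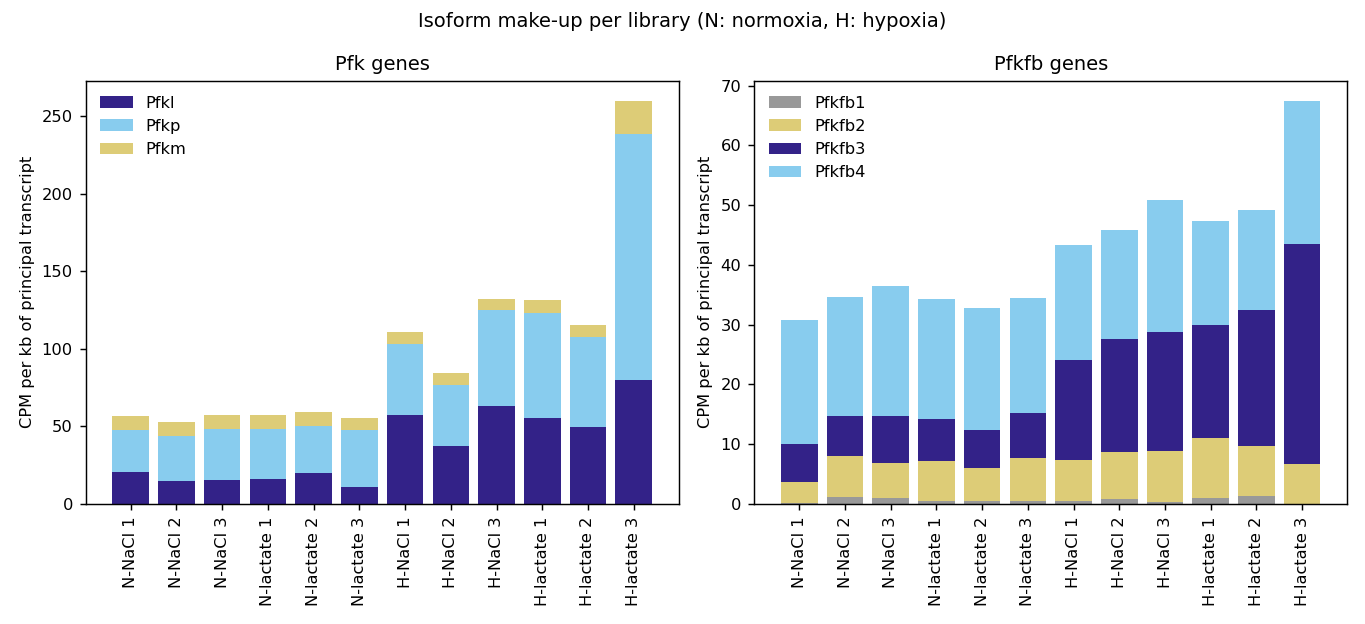
Stacked levels in each library, in CPM per kb of the longest principal transcript, for the 3 phosphofructokinase subunits (left) and the 4 PFKFB genes (right), with bars starting at 0. The subunit total was 55.6 in normoxia-NaCl and 109 in hypoxia-NaCl on average, and hypoxia-lactate 3 is the tallest bar in both panels.

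The make-up of each family differed between oxygen levels. Among the 3 subunits, Pfkl made up 29.9% ± 5.44 (SD, n = 3) of the summed CPM per kb in normoxia-NaCl and 47.9% ± 3.75 in hypoxia-NaCl, while Pfkm went from 16.7% ± 0.40 to 7.09% ± 1.78. In lactate Pfkl went from 26.6% ± 6.79 to 38.5% ± 6.78, with overlapping ranges, and Pfkm from 15.2% ± 1.06 to 7.1% ± 0.82. Pfkp went from 53.4% ± 5.42 to 45.0% ± 3.27 in NaCl and from 58.2% ± 7.80 to 54.4% ± 5.96 in lactate. Among the PFKFB genes, Pfkfb3 made up 20.4% ± 1.14 in normoxia-NaCl and 39.7% ± 1.32 in hypoxia-NaCl, and 20.4% ± 1.26 in normoxia-lactate and 47.1% ± 7.22 in hypoxia-lactate. The share of Pfkfb4 went from 61.7% ± 5.24 to 42.5% ± 2.42 in NaCl and from 59.1% ± 3.30 to 35.4% ± 1.34 in lactate. These levels depend on the length taken: with all annotated exons merged, Pfkl and Pfkp made up 35.0% and 34.8% of the subunits in normoxia-NaCl in place of 29.9% and 53.4%, and Pfkm 30.2% in place of 16.7%.

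Ratios of pairs of genes within a library test the difference between isoforms directly, and how they change with oxygen does not depend on the length taken. Of 9 pairs within the families, 5 changed with oxygen in an exact two-sided permutation test within media, with p-values adjusted over the 9 pairs. The smallest p that this test can give is 0.005. With same-numbered libraries paired, the exact sign-flip test called 0 of 9: all 5 pairs had an unadjusted p of 0.0312, the smallest it can give, and an adjusted p of 0.0563. For lactate 0 of 9 changed by the same exact permutation test, and 1 of 9, Pfkfb3 to Pfkfb4, reached an unadjusted p of 0.05 (difference 0.28 ± 0.10, adjusted p = 0.345).

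The Pfkfb3 to Pfkfb4 ratio separated oxygen levels most clearly relative to its error. On the log2 scale per kb it was -1.73, -1.58 and -1.47 in normoxia-NaCl and -1.52, -1.72 and -1.38 in normoxia-lactate. It was -0.19, 0.05 and -0.16 in hypoxia-NaCl, and 0.13, 0.45 and 0.62 in hypoxia-lactate. In normoxia every library had more Pfkfb4 than Pfkfb3 per kb, whereas in hypoxia the ratio was near or above 0. Where a ratio lies against 0 depends on the length taken. With merged exons Pfkfb4 made up 46.5% and Pfkfb3 37.2% of the PFKFB genes in hypoxia-NaCl, and 39.2% and 44.6% in hypoxia-lactate. The difference was 1.72 ± 0.10 (exact permutation test, adjusted p = 0.0112), and 1.66 without hypoxia-lactate 3. The ratio of Pfkfb2 to Pfkfb3 was lower in hypoxia by -1.20 ± 0.26 (adjusted p = 0.0112 by the same exact test), without overlap. That of Pfkfb2 to Pfkfb4 differed by 0.52 ± 0.23 and did not pass (exact test, adjusted p = 0.0675), though it did without hypoxia-lactate 3 (0.67, adjusted p = 0.009) or without normoxia-NaCl 2 (0.63, adjusted p = 0.045). The 3 pairs with Pfkfb1 did not pass. Without normoxia-NaCl 1, that of Pfkfb1 to Pfkfb3 did (-2.38, exact test, adjusted p = 0.015).

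Among the subunits, the ratio of Pfkl to Pfkm rose by 1.81 ± 0.21 on the log2 scale in hypoxia, and that of Pfkp to Pfkm by 1.01 ± 0.15. In both the hypoxia and normoxia libraries did not overlap within a medium, and both had an adjusted p of 0.0112 in the exact permutation test. The Pfkl to Pfkp ratio was -0.39, -1.04 and -1.12 in normoxia-NaCl and -1.05, -0.64 and -1.78 in normoxia-lactate. It was 0.33, -0.08 and 0.02 in hypoxia-NaCl, and -0.28, -0.25 and -0.995 in hypoxia-lactate. It was higher in hypoxia by 0.79 ± 0.25 (exact permutation test, adjusted p = 0.027), but hypoxia-lactate 3 lay among the normoxia libraries. This call was lost without normoxia-lactate 3 (adjusted p = 0.063), hypoxia-lactate 1 (adjusted p = 0.072) or hypoxia-lactate 2 (adjusted p = 0.0675). Without hypoxia-lactate 3 the difference was 0.92 (exact permutation test, adjusted p = 0.015).

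**Figure D4:**
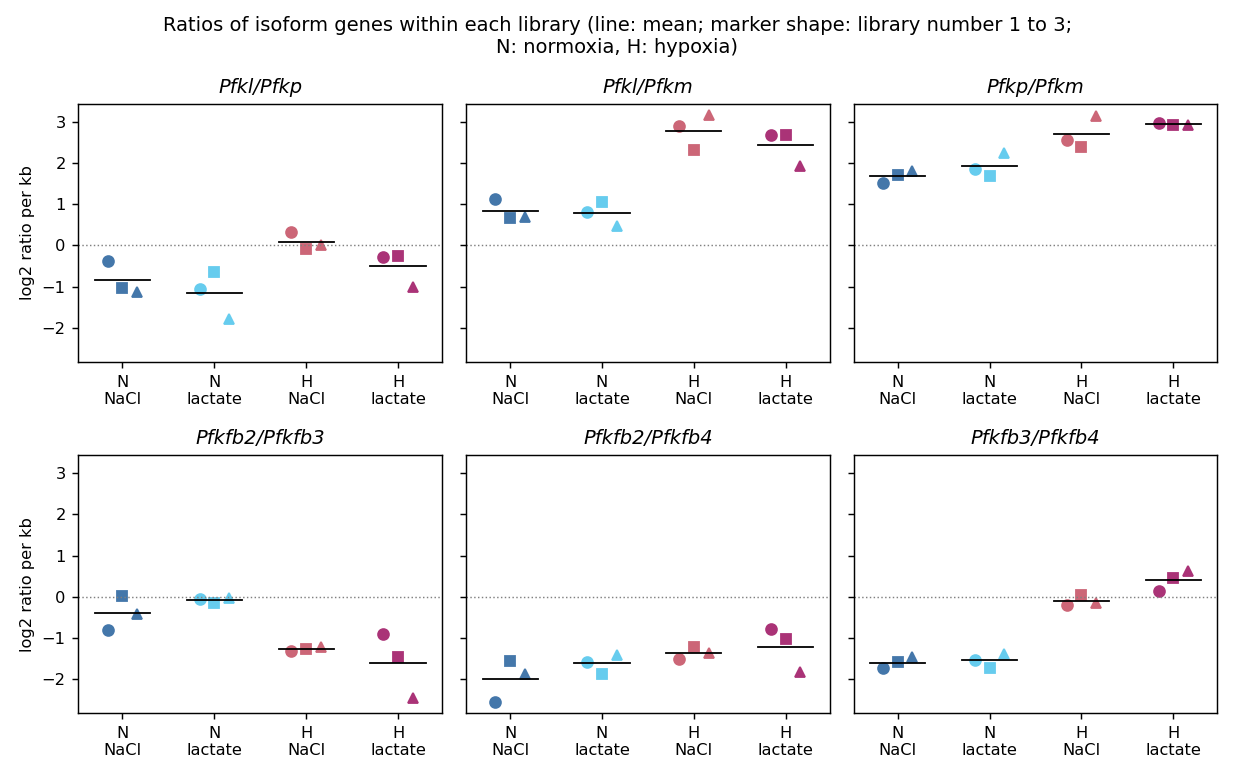
Log2 ratio per kb of 6 pairs of isoform genes in the 12 libraries, by group, with a line at each group mean. The dotted line is where both genes are equal per kb of the longest principal transcript. The marker shape gives the library number. The Pfkfb3 to Pfkfb4 panel shows the normoxia libraries between -1.73 and -1.38 and the hypoxia libraries between -0.19 and 0.62.

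The rest of glycolysis gives the setting of these changes. Of 19 genes listed from glucose uptake to lactate export, without the members, 18 were tested, and 10 rose and 0 fell with hypoxia averaged over both media. Their median log2 fold change was 1.06 against -0.01 for all genes tested. The 4 largest were Slc16a3, the lactate exporter (2.52 ± 0.27, adjusted p = 0.000427), Pgk1, phosphoglycerate kinase (1.92 ± 0.20, adjusted p = 0.000414), Slc2a1, a glucose transporter (1.91 ± 0.18, adjusted p = 0.000216), and Tpi1, triosephosphate isomerase (1.89 ± 0.28, adjusted p = 0.00525), in edgeR's test. Pfkl (1.83), Pfkfb3 (1.67) and Pfkp (1.12) lay below these 4. Without hypoxia-lactate 3, 10 rose, 1 fell (Hk3, a hexokinase) and the median was 0.90, with 7.59% of genes called in place of 1.38%. In hypoxia without lactate 5 of 18 rose, and with lactate 7 of 18, each with 0 falling. Without hypoxia-lactate 3 the counts were 8 of 18 and 8 of 18, with 1.79% and 0.862% of genes called in place of 0.281% and 0.226%. For lactate, in normoxia or hypoxia, edgeR, DESeq2 and limma-voom called 0 of 18, and with edgeR 0 and 3 had an unadjusted p under 0.05. For lactate in hypoxia, an unadjusted p of 0.0497 in edgeR's test, that of Pfkfb3, ranked 1657 among the 14616 genes.

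**Figure D5:**
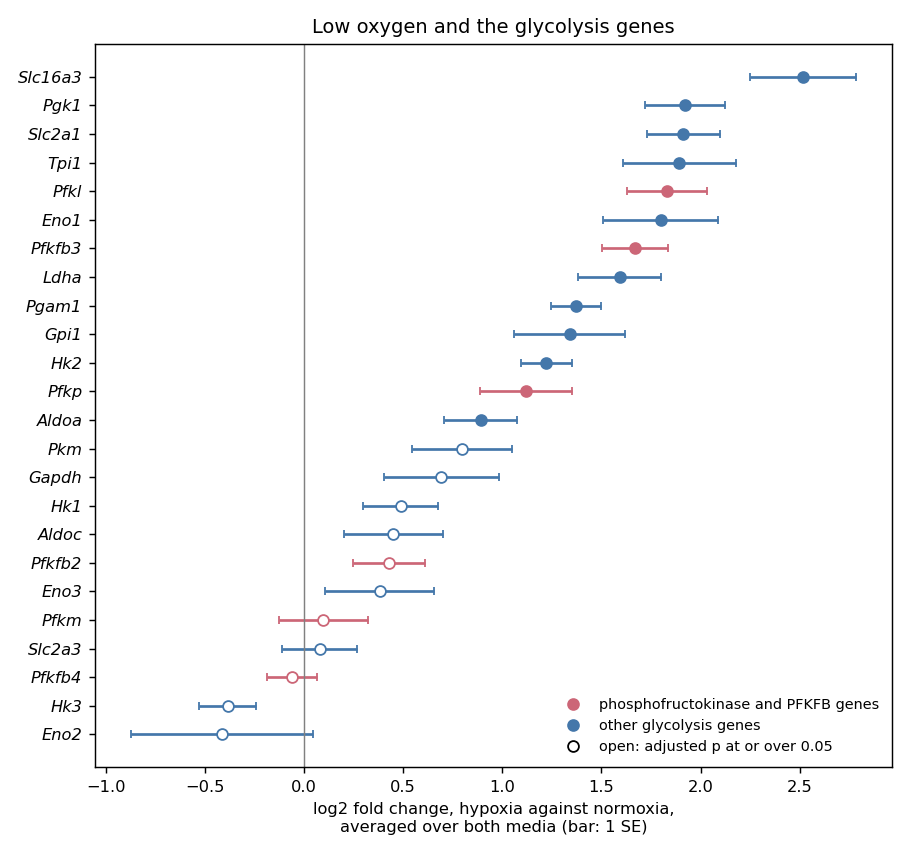
Log2 fold change of hypoxia against normoxia, averaged over both media, with its SE from a fit of 12 libraries, for 6 members and the 18 tested genes of the glycolysis list. Filled points have an adjusted p under 0.05 in edgeR's test. Pfkl (1.83) and Pfkfb3 (1.67) lie among the larger changes, and Pfkfb4 (-0.06) and Pfkm (0.10) near 0.

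Of the genes that act against the phosphofructokinase step, the bisphosphatase genes Fbp1 and Fbp2 were too low to test, with at most 4 reads of Fbp1 and 0 of Fbp2 in any library. Tigar, which encodes a bisphosphatase that lowers the activator, differed by 0.30 ± 0.23 with hypoxia averaged over both media (adjusted p = 0.598). Of 7 genes known to act on the PFKFB genes or proteins (Prkaa1, Prkaa2, Fzr1, Hif1a, Epas1, Prkaca and Akt1), edgeR, DESeq2 and limma-voom called 0 in that comparison (1.38%, 5.88% and 1.57% of all genes called), and 0 had an unadjusted p under 0.05 in edgeR. Their differences ran from -0.18 ± 0.12 for Prkaca, a catalytic subunit of protein kinase A, to 0.14 ± 0.51 for Prkaa2, a catalytic subunit of the AMP-activated kinase. Hif1a, the hypoxia-inducible factor subunit regulated mainly at the protein level, differed by 0.11 ± 0.16. Without hypoxia-lactate 3 the 7 again gave 0 calls for the mean effect of oxygen, with 7.59% of genes called. In that fit Hif1a passed edgeR's test for both conditions together (0.65 ± 0.15, adjusted p = 0.0252, 6.86% of genes called). It did not pass for hypoxia with lactate (adjusted p = 0.282) or for lactate in hypoxia (adjusted p = 0.248).

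The genes whose pattern over the 12 libraries was nearest to the members that rose were then listed. The genes most like Pfkl in log2 CPM, by Pearson correlation among 9203 genes, were Ldha (r = 0.976), Gys1 (r = 0.972) and Slc2a1 (r = 0.970), which encode lactate dehydrogenase A, glycogen synthase and a glucose transporter. Those most like Pfkfb3 were Hk2 (r = 0.979), a hexokinase, Snx25 (r = 0.975), a sorting nexin, and P4ha2 (r = 0.971), a collagen prolyl hydroxylase subunit. Those most like Pfkp were Map2k1, Jmjd6 and Papolg (r = 0.971, 0.971 and 0.966). Without hypoxia-lactate 3 these were 0.934, 0.936 and 0.908, at ranks 15, 12 and 62. The 3 genes listed for Pfkl were then at 0.978, 0.968 and 0.964 (ranks 2, 5 and 7). Those listed for Pfkfb3 were at 0.975, 0.967 and 0.959 (ranks 1, 9 and 18). Pfkl and Pfkfb3 correlated with each other at r = 0.925 and Pfkl and Pfkfb4 at r = -0.035. All these values share the same 4 groups and libraries and are descriptions.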

How the data were processed

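Per the labels' protocols, messenger RNA was isolated on oligo(dT) beads, and libraries from an Ion kit were read on a Proton sequencer. The deposited table holds the authors' raw read counts by Ensembl gene, with a column for each of the 12 libraries. BWA, HTSeq and the mm9 build appear in the submitters' processing notes. The annotation release, the strand setting and the tool versions were not given in the sources used here. If strand was not used, reads in exons shared with genes on the other strand cannot be told apart: 5.58% of the merged exon bases of Pfkp (with Pitrm1), 3.06% of Pfkfb1 (Apex2), 2.12% of Pfkfb2 (Yod1) and 0.539% of Pfkm (Senp1). Symbols, coordinates and lengths came from GENCODE M21 on GRCm38, a build other than that of the counts, by identifier. The 5 counters that name no gene stayed out of library sizes. Of all reads, 13.7% to 22.0% fell outside genes, 8.34% to 18.4% had several alignments, 2.02% to 5.48% had none, 0.361% to 0.443% were ambiguous and 0% were of low quality.

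A quasi-likelihood F test (edgeR 4.0.16 under R 4.3.3, TMM scaling, filterByExpr) was fitted to the counts of all 12 libraries by group. Its p-values were adjusted over 14616 genes by the Benjamini-Hochberg method, with a threshold of 0.05. Standard errors were computed back from the F statistic. Isoform ratios had 0.5 counts added to each gene and were tested by exact permutation within strata (400 arrangements). Levels per kb used the longest APPRIS principal transcript. For pattern likeness, log2 CPM had a prior count of 2 and genes needed a mean of 5 CPM and a symbol other than a clone, predicted-gene or pseudogene name. Alternatives used DESeq2 1.42.0 and limma 3.58.1. The fits were tested on simulated data.

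All 7 members are named. From each gene list up to 4 genes were named, those with the largest absolute change with oxygen averaged over media, and Hk3 was chosen after its values were seen. For each member called, the 3 genes most like it are named. The members and lists were chosen with earlier results of these data known. Same-numbered libraries of normoxia-NaCl and hypoxia-NaCl deviated together (r from 0.138 to 0.315, all over the limit of 0.1), so their numbers, which the labels give, were taken to pair them. The main fits did not use this pairing, which entered only as the replicate block and the sign-flip test among the alternatives. For the other group pairs compared the lowest r was -0.069 to 0.082, so pairing was not assumed there. In those pairs the libraries numbered 2 gave r from 0.126 to 0.333. Apart from hypoxia-lactate 3, the fibroblast and neutrophil sums also went with library number in all 4 groups. The calls of the main fits may therefore ignore a pairing that reaches all groups. Normoxia-lactate and hypoxia-NaCl, which were not compared, gave 0.185 to 0.404.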

Additional observations from a re-analysis of the deposited data

How the results depend on the processing

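Alternatives were RLE scaling, no filter, DESeq2, limma-voom with and without library quality weights, a replicate block, fits restricted to the groups of a comparison, and fits without each library or without both hypoxia-lactate 3 and normoxia-NaCl 1. Chosen after seeing the data were the block without those 2 libraries and the length from merged exons. No called value changed sign. For hypoxia without lactate, the count of members called was 2, fell to 1 with the replicate block (Pfkfb3), and ran from 0 to 2 on leaving out 1 library. For hypoxia with lactate it was 2, ran from 0 to 3 on leaving out 1 library, and was 0 in a fit of only the 2 groups. For both together it was 3, and 0 in such a fit. Of the isoform ratios, 5 changed with oxygen and 0 did with the replicate block, each at an adjusted p of 0.0563 from the smallest p that sign flips allow, 0.0312. The block ended no other call. The cause of these losses was not tested. The background moved more: hypoxia without lactate called 41 genes with edgeR, 151 with DESeq2 and 525 with quality weights. Of 28 shares per kb, 18 moved by more than 1 SD with merged exons. Pfkfb1, with 0 to 78 reads, is limited by depth.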
